A study of Mus musculus with 6 samples.

Results

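The genes of cholesterol synthesis and of sterol regulation were examined in an RNA-Seq dataset of primary mouse cortical cultures in which *Neurod2* had been silenced. They were 37 genes chosen by function, namely the enzymes of the mevalonate and sterol pathways, the regulators of SREBP processing, the genes that carry, sense or store sterols, and 3 enzymes of the fatty acid branch. A row of the deposited table was taken as a gene's locus when the overlap of the 2 spans was at least 0.5 of their union. Of the 37 genes, 35 had such a row, in 42 of the 32357 loci of the table. The authors' software had tested 34 of these genes, and all 34 had a mean of at least 1 FPKM (sequenced fragments scaled for transcript length and for library size).

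Cortical cells of Balb/c embryos (E14.5) were nucleofected with shRNA plasmids of the pSuperneoGFP backbone at plating and grown in medium with 10% serum and the supplements N-2 and B-27. RNA was collected on day 4 in vitro by the sample labels, while the study's methods give a later day. In 4 libraries the cells carried an shRNA against *Neurod2*, 2 of them Neurod2 shRNA-1 and 2 of them Neurod2 shRNA-2. The other 2 libraries carried a non-silencing shRNA, so that nucleofection, plasmid backbone and medium were shared by both groups. The deposited table holds 1 pooled FPKM value per group. The spread between libraries and the read depth behind each value are therefore unknown, no test could be made, and every difference below is a difference between 2 pooled values. The labels do not say whether the libraries of a group came from separate cultures, and the cells that took up no plasmid were not removed by any step that the labels or the study's methods name.

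Cholesterol is built from acetyl-CoA through mevalonate, isoprenoid diphosphates, squalene and lanosterol. When membrane sterol is low, SCAP escorts the SREBP transcription factors from the endoplasmic reticulum to the Golgi for cleavage, and the released factors switch on nearly every enzyme of the pathway, while the INSIG proteins hold the complex back when sterol is plentiful. Excess sterol is handled differently: oxidized sterols activate the liver X receptors, which induce the exporters ABCA1 and ABCG1 and the lipid carrier APOE. In brain tissue, which makes its own cholesterol, APOE is secreted mostly by astrocytes, and neurons can remove cholesterol as an oxysterol made by CYP46A1.

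The promoters of these genes are shown first, because the pathway is known for shared control at that level. RefSeq promoter windows of GRCm38.p6, each running from 250 bases before to 50 bases after an annotated start, were found for 30 of the 37 genes, in 41 windows. The genes not found were *Fdps*, *Fdft1*, *Sqle*, *Stard4*, *Abcg1*, *Npc1* and *Scd2*. A sterol regulatory element written as TCACNCCAC, searched on both strands, was present in 1 of the 30 genes, *Hmgcs1*. It was present in 1.24% of all 32851 windows of the table and in 1.41% of protein-coding genes. The CCAAT box, bound by the SREBP partner NF-Y and written as CCAAT on either strand, was present in 24 of the 30 genes, against 37.4% of all windows and 42.3% of 17492 protein-coding genes. It was present in 15 of 16 synthesis enzymes, with *Acat2* as the exception, in 4 of 5 SREBP regulators, in both enzymes of the fatty acid branch that had a window, and in 3 of 7 sterol handling genes. *Apoe*, *Abca1*, *Nr1h2* and *Nr1h3* were the handling genes without it. The E-boxes CAGATG and CAGCTG are the core letters that neurogenic basic helix-loop-helix factors such as NEUROD2 can bind. They were present in 5 and 4 of the 30 genes. The shares were 17.2% and 16.3% of all windows, and 16.7% and 17.4% of protein-coding genes. In the sequences printed here, matches of different motifs do not overlap. A match is only a description of the letters. Only these spellings were searched, so a gene without a match may still hold another form of the element.

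The 250 bases before an annotated start are printed for 3 genes that the levels below turn on, namely *Hmgcs1*, the enzyme gene with the highest level, *Sc5d*, the enzyme gene with the largest difference, and *Apoe*, the gene with the largest difference of all. Capitals mark the sterol regulatory element, the CCAAT box (or ATTGG, its reverse complement) and the letters TATAA on either strand, which 24.9% of all windows hold. The *Hmgcs1* stretch lies at chr13:119690101-119690350 on the plus strand, the *Sc5d* stretch at chr9:42264301-42264550 on the minus strand, and the *Apoe* stretch at chr7:19698622-19698871 on the minus strand. The *Apoe* stretch precedes an internal start: it lies inside the *Apoe* locus of the table, whose 5′ end is at position 19699188, and it was chosen because it was the 1 of 3 windows of that gene with a match to any of the marked motifs. The *Hmgcs1* and *Sc5d* stretches end where their loci begin.
Hmgcs1: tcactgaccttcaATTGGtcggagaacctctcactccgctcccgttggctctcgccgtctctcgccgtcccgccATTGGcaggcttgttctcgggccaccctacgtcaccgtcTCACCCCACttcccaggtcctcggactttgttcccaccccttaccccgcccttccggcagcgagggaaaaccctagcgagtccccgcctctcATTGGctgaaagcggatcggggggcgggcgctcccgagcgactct
Sc5d: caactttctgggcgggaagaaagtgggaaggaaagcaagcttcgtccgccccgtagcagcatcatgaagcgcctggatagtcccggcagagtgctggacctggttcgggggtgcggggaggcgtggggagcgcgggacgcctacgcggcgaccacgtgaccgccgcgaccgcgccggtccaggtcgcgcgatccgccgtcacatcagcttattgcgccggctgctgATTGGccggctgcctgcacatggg
Apoe: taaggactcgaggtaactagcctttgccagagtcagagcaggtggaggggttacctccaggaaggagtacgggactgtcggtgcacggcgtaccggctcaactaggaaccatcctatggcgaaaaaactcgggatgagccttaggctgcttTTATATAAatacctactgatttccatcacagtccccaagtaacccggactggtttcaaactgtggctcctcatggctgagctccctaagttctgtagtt
The *Hmgcs1* stretch held 3 CCAAT boxes and the sterol regulatory element between them, the *Sc5d* stretch held 1 CCAAT box close to the start, and the *Apoe* stretch held neither of these motifs and 2 overlapping TATAA matches on opposite strands.

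**Figure D1:**
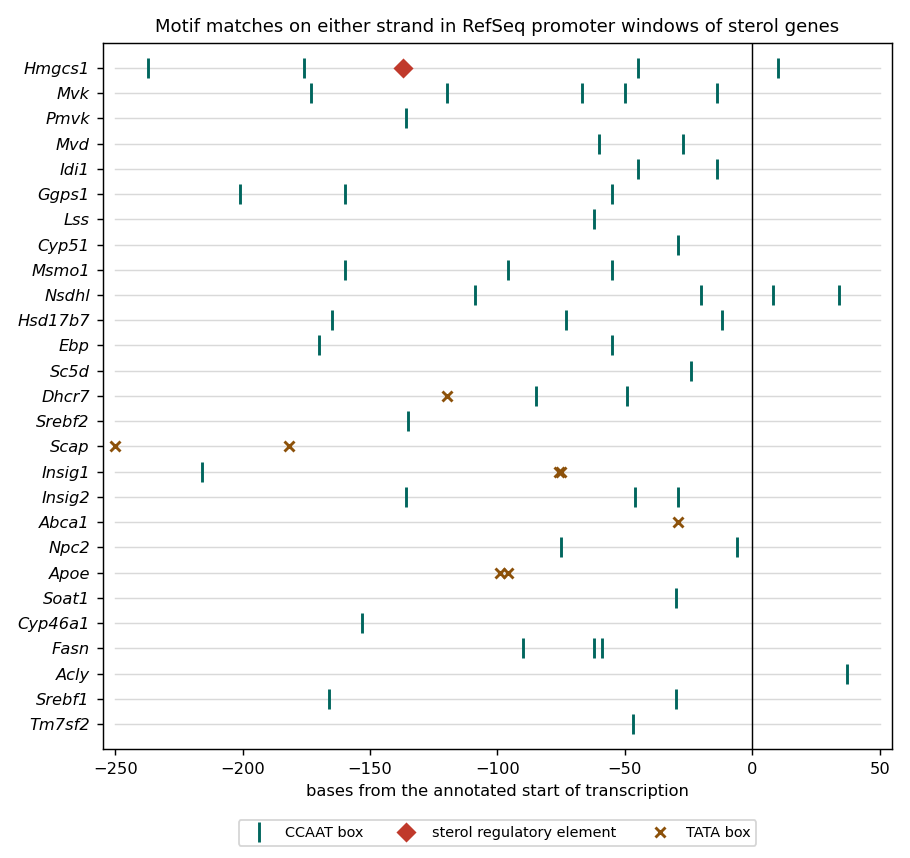
Positions of motif matches on either strand, in bases from the annotated start of transcription, for the sterol genes with at least 1 match; matches in several windows of a gene are drawn on 1 line, and gray lines mark the window from 250 bases before to 50 bases after the start. CCAAT boxes (green bars) stand on the lines of 24 genes and the sterol regulatory element (red diamond) only on the *Hmgcs1* line. Matches to the letters TATAA (brown crosses, labelled TATA box), at any place in the window, stand on 5 lines.

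As a group, the sterol genes had close to the same level after *Neurod2* silencing as with the non-silencing shRNA. The log2 ratio of knockdown over non-silencing FPKM had a median of -0.07 over the 34 genes, with an SD across genes of 0.17. All tested loci with known values above 0 in both groups and a mean of at least 1 FPKM numbered 12601. They had a median of -0.03 and an SD of 0.32. Loci at 0 in 1 group have no log2 ratio and are left out of these and all later shares. The quartiles were alike, -0.15 and 0.03 for the sterol genes and -0.13 and 0.07 for all those loci. Within 1.2-fold were 88.2% of the 34 genes and 86.2% of all those loci. The ratio was below 0 for 25 of the 34 genes (73.5%) and for 58.4% of all those loci. At a mean of at least 10 FPKM it was below 0 for 72.4% of 29 sterol genes and for 62.5% of 7185 tested loci. More than 1.2-fold lower in knockdown cultures were 3 of 34 genes (8.82%), *Apoe*, *Abcg1* and *Fasn*, where 7.97% of all tested loci were that much lower. More than 1.2-fold higher was 1 of 34 genes (2.94%), *Sc5d*, where 5.79% of all loci were that much higher. The study called genes at 1.5-fold together with a limit on the false discovery rate, and only the fold was used here. At 1.5-fold, *Apoe* was the 1 gene that was lower (2.94%), beside 2.02% of all loci. None of the 34 was higher, beside 1.35% of all loci. The shares within 1.2-fold and past either fold on the low side lie near those of the whole table. The share below 0 was larger among the sterol genes, 73.5% beside 58.4%, and this difference was not tested.

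**Figure D2:**
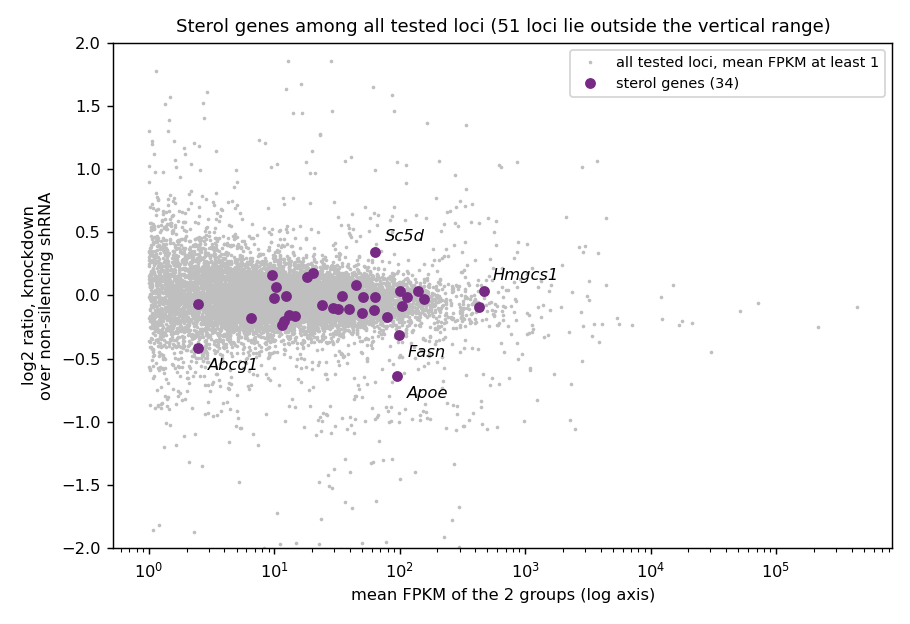
Log2 ratio of FPKM, knockdown over non-silencing (vertical axis), against the mean FPKM of the 2 groups (horizontal log axis). Purple marks the 34 sterol genes. Gray marks all 12601 tested loci with values above 0 in both groups and a mean of at least 1 FPKM. Of these loci, 51 lie outside the vertical range. The sterol genes lie inside the gray cloud, with *Apoe* at -0.64 and *Sc5d* at 0.35 as their lowest and highest points.

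*Neurod2* itself, the target of both shRNAs, was at 60.3 FPKM in knockdown cultures, against 105 FPKM in non-silencing cultures, a log2 ratio of -0.80. Its transcript was thus reduced and still present. The cultures held the transcripts of several cell types. All 8 neuronal markers were within 1.2-fold, as were 86.2% of all tested loci. Their summed level was 2248 FPKM in knockdown and 2105 FPKM in non-silencing cultures. Of 9 tested markers of astrocytes and radial glia, *Gfap* and *Gja1* were more than 1.2-fold lower, 5 had ratios below 0 and 4 above. The 9 markers summed to 1614 FPKM in knockdown and 1461 FPKM in non-silencing cultures. Most of both sums was *Fabp7*, at 1227 FPKM in knockdown and 1057 FPKM in non-silencing cultures. Of 7 tested markers of the oligodendrocyte lineage, 3 were more than 1.2-fold lower (*Sox10*, *Cspg4* and *Pdgfra*). Of all tested loci, 7.97% were that much lower, the share to set beside both glial lists. *Sox10* and *Cspg4* were at low means, 2.36 and 1.74 FPKM. The 7 markers summed to 105 FPKM in knockdown and 112 FPKM in non-silencing cultures. Markers of microglia were at or near 0, at no more than 0.183 FPKM in knockdown and 0.0847 FPKM in non-silencing cultures, and so were those of endothelium, at no more than 0.162 FPKM in knockdown and 0.0846 FPKM in non-silencing cultures. The 8 markers of fibroblasts and mural cells were also low and summed to 7.09 FPKM in knockdown and 4.40 FPKM in non-silencing cultures. Among them *Col1a1*, *Col3a1*, *Acta2* and *Postn* had log2 ratios of 2.96, 2.16, 1.64 and 1.67, each at a mean below 1 FPKM. For *Col1a2*, *Dcn*, *Lum* and *Pdgfrb* the log2 ratios were 0.02, 0.01, -0.25 and -0.18.

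The steps that lead to mevalonate and its isoprenoid products differed little between the groups. All 8 of these genes were within 1.2-fold, with log2 ratios between -0.14 and 0.18 and a median of -0.09. Of all tested loci, 86.2% were within 1.2-fold. *Hmgcs1*, whose product makes HMG-CoA, was the most abundant sterol gene, at 473 FPKM in knockdown and 461 FPKM in non-silencing cultures. *Acat2*, the acetyl-CoA acetyltransferase of the first step, was at 101 FPKM in knockdown and 107 FPKM in non-silencing cultures. The enzymes that phosphorylate and decarboxylate mevalonate all lay slightly below 0 on the log2 scale. *Mvk*, mevalonate kinase, was at 28.4 FPKM in knockdown and 30.4 FPKM in non-silencing cultures, and *Pmvk*, phosphomevalonate kinase, at 38.1 FPKM in knockdown and 40.98 FPKM in non-silencing cultures. *Mvd*, the decarboxylase that forms isopentenyl diphosphate, was at 47.9 FPKM in knockdown and 52.7 FPKM in non-silencing cultures (log2 ratio -0.14). The readthrough gene *Gm20388* also overlaps its locus.

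*Idi1*, the isomerase that converts isopentenyl to dimethylallyl diphosphate, stood apart by its level and not by its ratio. It was at 2.41 FPKM in knockdown and 2.52 FPKM in non-silencing cultures, the lowest of the 18 tested synthesis enzymes, and the next lowest was *Ebp*. *Fdps*, farnesyl diphosphate synthase, which supplies both sterols and prenylated proteins, was at 59.8 FPKM in knockdown and 64.99 FPKM in non-silencing cultures. Its locus is also overlapped by *Gm43738* and holds a small RNA gene. *Ggps1*, which draws farnesyl diphosphate into geranylgeranyl diphosphate and so away from sterols, was the gene of this group with the largest ratio. It was at 21.8 FPKM in knockdown and 19.3 FPKM in non-silencing cultures, a log2 ratio of 0.18. Of 4956 loci with a mean level within 2-fold of that of *Ggps1*, 5.1% had a ratio at least as high.

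Squalene and lanosterol formation showed the smallest differences. *Fdft1*, squalene synthase and the first enzyme committed to sterols, was at 50.5 FPKM in knockdown and 50.97 FPKM in non-silencing cultures, and its second row gave 43.6 FPKM in knockdown and 43.5 FPKM in non-silencing cultures. The span of both *Fdft1* rows also covers the neighbouring gene *Ctsb*, a lysosomal protease, and the table does not say which transcripts either row holds. *Sqle*, squalene epoxidase, a rate-limiting oxygenase of the pathway, was at 154 FPKM in knockdown and 157 FPKM in non-silencing cultures. *Lss*, which closes the ring to lanosterol, was at 34.8 FPKM in knockdown and 35.0 FPKM in non-silencing cultures. All 3 genes had log2 ratios between -0.03 and -0.01. A second *Lss* row at the same position, of low level, was at 1.53 FPKM in knockdown and 1.02 FPKM in non-silencing cultures.

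The steps from lanosterol to cholesterol held the gene with the largest higher value. *Sc5d*, the sterol desaturase that acts shortly before cholesterol is formed (mm10 locus chr9:42251595-42264300, minus strand), was at 71.7 FPKM in knockdown cultures, against 56.4 FPKM in non-silencing cultures, a log2 ratio of 0.35 or 1.27-fold. Among 2278 loci with a mean level within 2-fold of its own, 46 (2.02%) had a ratio at least as high. The enzymes before and after it did not share this value. *Cyp51*, lanosterol demethylase, was at 113 FPKM in knockdown and 114 FPKM in non-silencing cultures, and *Msmo1*, the methylsterol oxidase, at 142 FPKM in knockdown and 138 FPKM in non-silencing cultures. *Nsdhl*, which removes the oxidized methyl groups together with *Hsd17b7*, was at 45.9 FPKM in knockdown and 43.3 FPKM in non-silencing cultures. *Hsd17b7*, the reductase of the same complex, was at 19.2 FPKM in knockdown and 17.4 FPKM in non-silencing cultures (log2 ratio 0.14).

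*Ebp*, the isomerase that moves the ring double bond, and *Dhcr7*, which reduces the product of *Sc5d* to cholesterol, lay on the other side of 0. *Ebp* was at 6.10 FPKM in knockdown and 6.90 FPKM in non-silencing cultures (log2 ratio -0.18). *Dhcr7* was at 13.9 FPKM in knockdown and 15.5 FPKM in non-silencing cultures (log2 ratio -0.16). A second *Dhcr7* row with the same position was at 3.51 FPKM in knockdown and 6.85 FPKM in non-silencing cultures, a log2 ratio of -0.97. The main *Dhcr7* row was chosen for its higher level, and the table does not name the transcript behind each. *Tm7sf2*, a sterol reductase, had no row of its own: its span made up 0.387 of the union with a locus shared with *Vps51*, which was at 64.0 FPKM in knockdown and 64.97 FPKM in non-silencing cultures. Over the 18 tested synthesis enzymes the summed level was 1423 FPKM in knockdown and 1414 FPKM in non-silencing cultures. Ratios below 0 were found for 12 of them, and *Sc5d* was the only 1 outside 1.2-fold. The share of all tested loci within 1.2-fold was 86.2%.

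**Figure D3:**
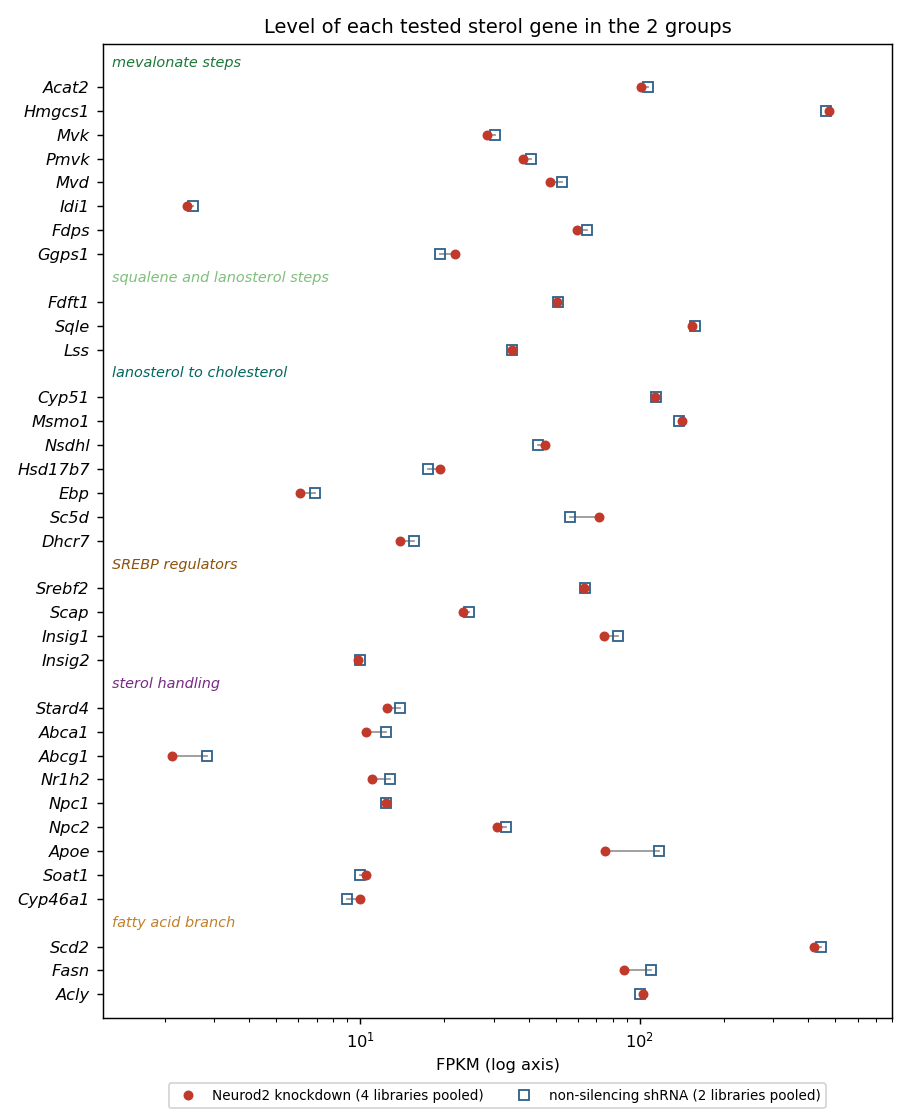
FPKM (horizontal log axis) of each of the 34 tested sterol genes, by role, in *Neurod2* knockdown cultures (red circles, 4 libraries pooled) and non-silencing cultures (blue squares, 2 libraries pooled); no error can be drawn because the table holds 1 value per group. The 2 marks lie close together for most genes and are farthest apart for *Apoe*, *Abcg1*, *Sc5d* and *Fasn*.

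The regulators of SREBP processing lay at or slightly below 0. *Srebf2*, the transcription factor gene most tied to cholesterol synthesis, was at 63.2 FPKM in knockdown and 63.6 FPKM in non-silencing cultures, at a locus that holds the microRNA gene *Mir33*. *Scap*, the sterol-sensing escort, was at 23.3 FPKM in knockdown and 24.5 FPKM in non-silencing cultures. *Insig2*, the INSIG gene that does not depend on SREBP, was at 9.83 FPKM in knockdown and 9.96 FPKM in non-silencing cultures. *Insig1*, which is itself a target of SREBP and is used as a readout of its activity, was the most distant of the 4, at 74.2 FPKM in knockdown and 83.4 FPKM in non-silencing cultures (log2 ratio -0.17). All 4 tested regulators were within 1.2-fold, as were 86.2% of all tested loci, and their median was -0.05.

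*Srebf1*, the factor more tied to fatty acid synthesis, could not be read from the table. Its span made up 0.183 of the union with a locus that also covers *Rai1* and 2 microRNA genes, *Mir6921* and *Mir6922*. That locus had 4 tested rows. Of these, 1 was at 12.2 FPKM in knockdown and 13.6 FPKM in non-silencing cultures, and another at 14.7 FPKM in knockdown and 16.3 FPKM in non-silencing cultures. The other 2 rows were listed at 0 in 1 group each, the first at 0 FPKM in knockdown and 124 FPKM in non-silencing cultures, the second at 121 FPKM in knockdown and 0 FPKM in non-silencing cultures. None of these rows was counted for *Srebf1*.

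The genes that carry, sense, export or store sterols had a median log2 ratio of -0.15 over 9 tested genes, with 7 of the 9 below 0. The 18 synthesis enzymes had a median of -0.02, with 12 of the 18 below 0, and 58.4% of all tested loci were below 0. The difference between the 2 groups of genes was not tested. *Apoe*, the main lipid carrier of the brain (mm10 locus chr7:19696244-19699188, minus strand), was at 75.0 FPKM in knockdown cultures, against 117 FPKM in non-silencing cultures, a log2 ratio of -0.64 or 1.56-fold lower. Of 1437 loci with a mean level within 2-fold of that of *Apoe*, 51 (3.55%) had a ratio at least as low. Without *Apoe*, the other 8 genes summed to 99.8 FPKM in knockdown and 106 FPKM in non-silencing cultures, with a median log2 ratio of -0.13.

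The exporters *Abcg1* and *Abca1* were lower in knockdown cultures by less than *Apoe*, and the rows of the liver X receptor genes differed in sign. *Abcg1*, an exporter of sterol to lipoprotein particles (mm10 locus chr17:31057694-31117981, plus strand), was at 2.13 FPKM in knockdown and 2.84 FPKM in non-silencing cultures, a log2 ratio of -0.42, and 5.03% of 2781 loci of like level had a ratio at least as low. *Abca1*, which loads lipid onto APOE, was at 10.5 FPKM in knockdown and 12.3 FPKM in non-silencing cultures (log2 ratio -0.23). *Nr1h2*, the liver X receptor beta gene, was at 11.1 FPKM in knockdown and 12.7 FPKM in non-silencing cultures (log2 ratio -0.20). A second *Nr1h2* row at the same position pointed the other way, at 2.41 FPKM in knockdown and 1.79 FPKM in non-silencing cultures. *Nr1h3*, the liver X receptor alpha gene, had a row that was not tested, at 0.253 FPKM in knockdown and 0.152 FPKM in non-silencing cultures.

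The genes for sterol traffic, storage and turnover were within 1.2-fold, as were 86.2% of all tested loci. *Npc1* and *Npc2* encode the membrane and soluble proteins that pass cholesterol out of lysosomes. *Npc1* was at 12.35 FPKM in knockdown and 12.37 FPKM in non-silencing cultures, at a locus that also covers *Rmc1*, and its second row gave 11.3 FPKM in knockdown and 10.9 FPKM in non-silencing cultures. *Npc2* was at 30.8 FPKM in knockdown and 33.1 FPKM in non-silencing cultures (log2 ratio -0.11). *Stard4*, a cytosolic sterol carrier and SREBP target, was at 12.4 FPKM in knockdown and 13.8 FPKM in non-silencing cultures (log2 ratio -0.15). Storage and turnover lay above 0. *Soat1*, which esterifies cholesterol for storage, was at 10.5 FPKM in knockdown and 10.00 FPKM in non-silencing cultures. *Cyp46a1*, the neuronal cholesterol hydroxylase, was at 10.03 FPKM in knockdown and 8.99 FPKM in non-silencing cultures (log2 ratio 0.16).

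Because *Apoe* and the exporters are expressed strongly by glia, their values were set beside the glial markers. Within the astrocyte and radial glia list, *Gfap*, the intermediate filament of astrocytes, was at 35.1 FPKM in knockdown and 57.4 FPKM in non-silencing cultures (log2 ratio -0.71), and *Gja1*, a gap junction protein, at 6.74 FPKM in knockdown and 8.40 FPKM in non-silencing cultures (log2 ratio -0.32). The other markers of this list did not share that size. *Fabp7*, a radial glial lipid-binding protein, was at 1227 FPKM in knockdown and 1057 FPKM in non-silencing cultures (log2 ratio 0.22), and *Aldoc*, an astrocytic aldolase, at 76.5 FPKM in knockdown and 69.9 FPKM in non-silencing cultures (log2 ratio 0.13). The median of the 9 tested markers was -0.02. The part of glial cells in the *Apoe* value was not tested, and in these bulk cultures fewer cells of a type and less RNA per cell cannot be told apart. In the oligodendrocyte lineage *Sox10*, *Cspg4* and *Pdgfra* had log2 ratios of -0.49, -0.40 and -0.33, while *Olig2* was at -0.0018 and *Mbp* at 0.04. Microglia, another source of *Apoe*, had no tested marker, and 6 of 8 listed markers had a row, 2 of them at 0 in both groups.

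**Figure D4:**
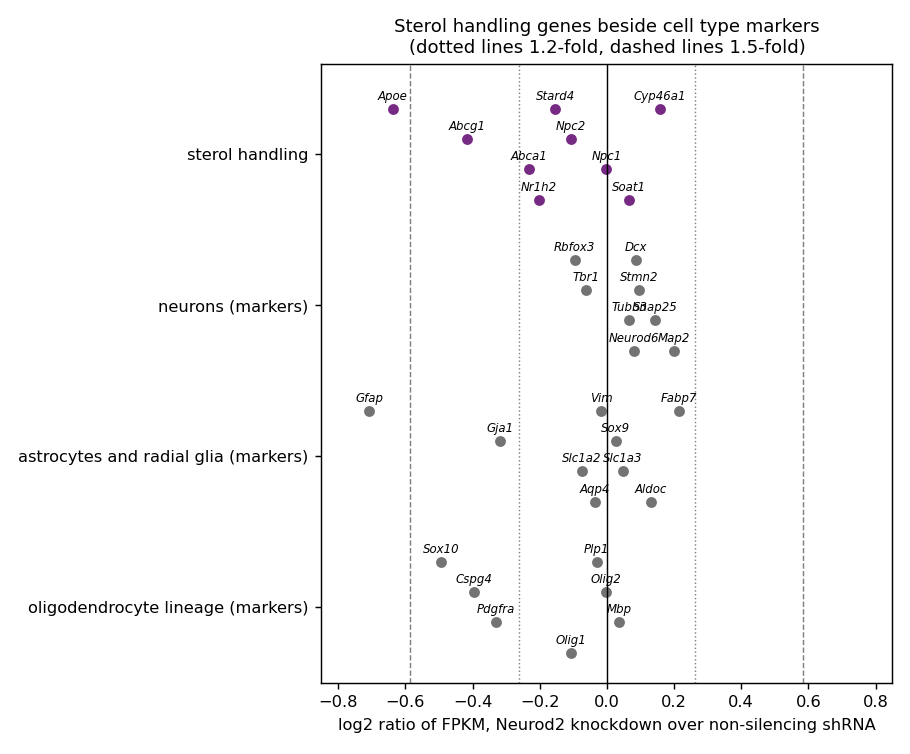
Log2 ratio of FPKM, knockdown over non-silencing (horizontal axis), for the 9 tested sterol handling genes (purple) and for markers of neurons, of astrocytes and radial glia and of the oligodendrocyte lineage with a mean of at least 1 FPKM (gray); vertical offsets only separate the labels. *Apoe* at -0.64 and *Gfap* at -0.71 are the lowest points of their lists, and the 8 neuronal markers lie between -0.10 and 0.20.

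In the fatty acid branch, *Fasn*, fatty acid synthase and a target of SREBP and of liver X receptors (mm10 locus chr11:120805958-120824547, minus strand), was at 87.8 FPKM in knockdown and 109 FPKM in non-silencing cultures, a log2 ratio of -0.32, and 7.01% of 1398 loci of like level had a ratio at least as low. *Acly*, which supplies cytosolic acetyl-CoA to both branches, was at 103 FPKM in knockdown and 99.9 FPKM in non-silencing cultures. *Scd2*, the stearoyl-CoA desaturase of brain, was the most abundant of the 3, at 418 FPKM in knockdown and 446 FPKM in non-silencing cultures. The loci of *Acly* and *Scd2* each hold a microRNA gene, *Mir7116* and *Mir5114*.

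**Figure D5:**
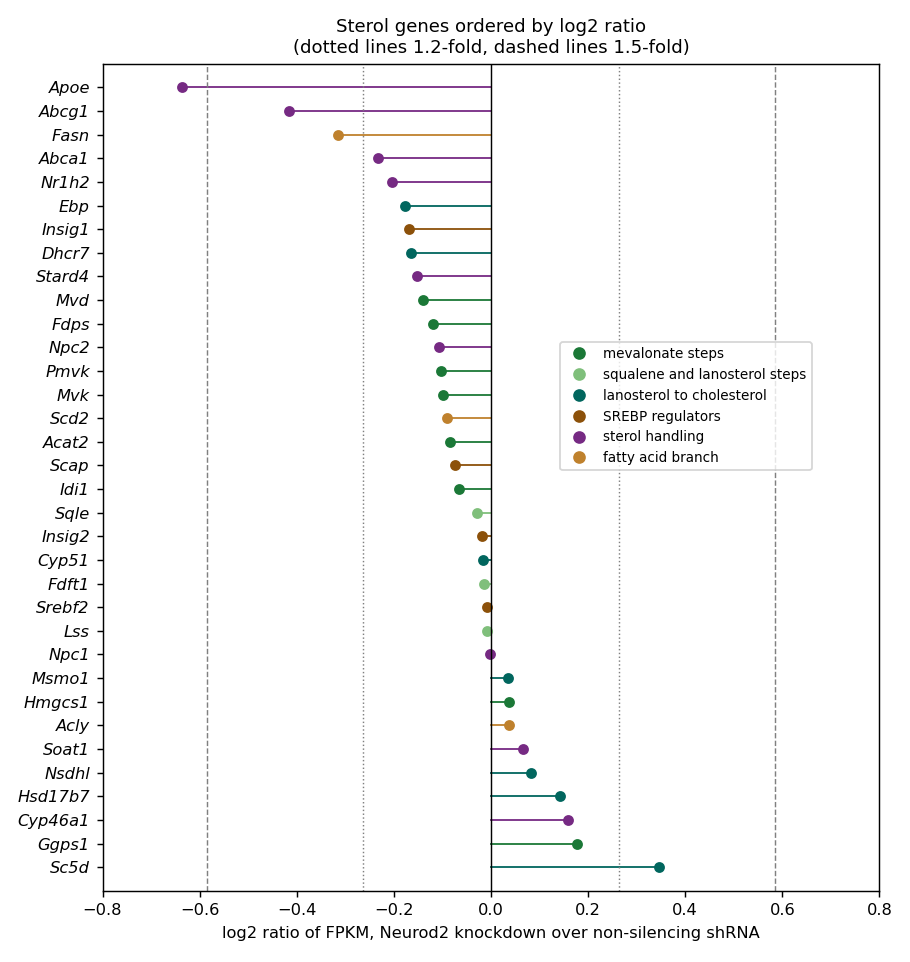
Log2 ratio of FPKM, knockdown over non-silencing (horizontal axis), of the 34 tested sterol genes in order, coloured by role, with dotted lines at 1.2-fold and dashed lines at 1.5-fold. *Apoe*, *Abcg1* and *Fasn* lie beyond the dotted line on the low side, *Sc5d* on the high side, and *Apoe* alone beyond a dashed line.

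Other genes of the same metabolism were taken from 4 further lists of 44 genes in all, of which 38 were tested. Below 0 were 30 of the 38 (78.9%), beside 58.4% of all tested loci, with a median log2 ratio of -0.09. More than 1.2-fold lower were 6 (15.8%, beside 7.97% of all loci), among them *Fads1*, *Rabggtb*, *Clu*, *Stard3* and *Acaca*. More than 1.2-fold higher were 2 (5.26%, beside 5.79% of all loci), *Erlin1* and *Pcyt2*. The difference between this list and all loci was not tested. *Acaca*, which makes the malonyl-CoA that *Fasn* uses, had a value on the same side as *Fasn*, at 41.5 FPKM in knockdown and 50.3 FPKM in non-silencing cultures (log2 ratio -0.28). *Stard3*, a sterol carrier of late endosomes, was at 12.5 FPKM in knockdown and 15.3 FPKM in non-silencing cultures. *Clu*, a lipoprotein-associated protein that astrocytes secrete as they do APOE, was at 19.2 FPKM in knockdown and 24.4 FPKM in non-silencing cultures (log2 ratio -0.34).

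The largest ratios of these lists came from loci with more than 1 row or with small RNA genes inside. *Fads1*, a fatty acid desaturase, had a row at 74.2 FPKM in knockdown and 305 FPKM in non-silencing cultures (log2 ratio -2.04), while a second row at the same position was at 79.2 FPKM in knockdown and 83.3 FPKM in non-silencing cultures, and the microRNA gene *Mir6993* lies inside the locus. *Erlin1*, a factor in sterol-dependent protein degradation, had a row at 18.9 FPKM in knockdown and 6.08 FPKM in non-silencing cultures (log2 ratio 1.64), and a second row at 3.49 FPKM in knockdown and 3.96 FPKM in non-silencing cultures. *Rabggtb*, a subunit of the enzyme that prenylates RAB proteins, was at 880.3 FPKM in knockdown and 1324 FPKM in non-silencing cultures (log2 ratio -0.59), at a locus that holds small nucleolar RNA genes. *Pcyt2*, of phosphatidylethanolamine synthesis, was at 66.3 FPKM in knockdown and 54.6 FPKM in non-silencing cultures (log2 ratio 0.28). Among the lipoprotein receptors, *Vldlr* was at 24.4 FPKM in knockdown and 27.8 FPKM in non-silencing cultures. *Lrp8* was at 26.9 FPKM in knockdown and 28.6 FPKM in non-silencing cultures, and *Lrp1* at 34.5 FPKM in knockdown and 36.8 FPKM in non-silencing cultures. These receptors were within 1.2-fold, as were 86.2% of all tested loci.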

How the data were processed

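RNA from 6 libraries, 4 with an shRNA against Neurod2 and 2 with a non-silencing shRNA, had been sequenced as single-end reads of 50 bp. Per the submitters' processing notes, the authors used TopHat for alignment, with mm10 as the genome, Cufflinks for assembly, and Cuffdiff to set the pooled groups against each other. Tool versions: not given in the sources used here. Each locus of the table that the authors deposited has a single FPKM value for each group, and read depth is unknown. Its columns of fold change, test statistic, p-value and q-value are the authors' own comparison and were not used, except that the deposited log2 fold change served as a key for cells altered by a spreadsheet, which had turned numbers into times. Numbers that give the stored time were kept where their ratio met the key within 2e-05. Of the tested loci, 8593 were as written, 4863 were restored and 42 stayed unsettled. Among the 34 tested sterol genes, 12 rows were restored. The step was tested on simulated numbers altered by the same rules that it undoes. That test cannot show how the deposited cells were altered.

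Loci carry no gene symbol and were matched by position to GENCODE M21 with Python 3.11.15. Where a gene had several tested rows, that with the largest overlap was used and, at 1 position, that with the higher mean, the last rule being chosen after the table was seen. The log2 ratio used no pseudocount, values above 0 in both groups and a mean of at least 1 FPKM. With 1 value per group no test was run; counts beyond 1.2-fold and 1.5-fold were set beside those of all 12601 tested loci. Alternatives were other pseudocounts (0.1 and 1 FPKM), minima (none, 5 and 10 FPKM), an overlap of 0.8, other choices of rows, unaltered cells only and centring. The text names Neurod2 and all 37 sterol genes. Of each other list it names up to 4 genes with the largest absolute ratio at a mean of at least 1 FPKM. Lrp1, Lrp8, Olig2, Mbp and the markers of fibroblasts and mural cells were named after their values were seen. The values of 1 further gene of these lists are not reported here. The members and lists were chosen with earlier results of these data known. Promoter sequences are those of RefSeq on GRCm38.p6, the assembly of mm10.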

Additional observations from a re-analysis of the deposited data

How the results depend on the processing

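The count of sterol genes beyond 1.2-fold, the count beyond 1.5-fold and the median log2 ratio were recomputed under 11 alternatives, of which a minimum of 10 FPKM and the use of the lower row at a shared position were chosen after seeing the data. The count beyond 1.2-fold stayed within 1.5 times its value of 4 under 9 of them, the count beyond 1.5-fold at 1 under 8, and the median within 0.02 of its value of -0.07 under 8. With every tested row in place of 1 per gene, 7 of 39 rows lay beyond 1.2-fold and 3 beyond 1.5-fold, with a median of -0.0291; the rows added beyond 1.2-fold were those of *Dhcr7*, *Lss* and *Nr1h2*, and those beyond 1.5-fold were of *Dhcr7* and *Lss*. With the lower row at a shared position the counts were 7 and 3 and the median -0.0472. With unaltered cells only, 2 of 23 genes lay beyond 1.5-fold, because *Dhcr7* was then read from its lower row. Centring on the median of all loci put the median of the sterol genes at -0.0379. No alternative gave the median the opposite sign. *Apoe* passed 1.5-fold by a small margin, 1.56-fold, and with 1 pooled value per group neither the spread between libraries nor a difference between the 2 shRNAs could be seen. No paired analysis was possible because the table holds 1 pooled column per group.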
